A study of Mus musculus with 9 samples.

Results

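Mitochondrial ribosomal proteins are the protein subunits of the ribosome that works inside mitochondria. The genes were taken by name from the deposited expression table of a mouse liver study: symbols that start with Mrpl (large subunit) or Mrps (small subunit) followed by a number and at most a letter, with 10 or more read counts in at least 3 libraries. Of 21898 genes in the table, 78 matched the name and 77 of these were kept, 48 named Mrpl and 29 named Mrps. Mrpl53, the gene left out, was listed at 0 in all 9 libraries; in GENCODE M21, 88.0% of its exon length is shared with Gm42688 on the same strand. The 77 genes each had 10 or more counts in all 9 libraries and all passed the filter on low counts used for testing.

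The study asked how tormentic acid, a triterpenoid found in plants, affects liver in a mouse model of metabolic-associated fatty liver disease. The TA group (3 libraries) was fed the MCD diet, which lacks methionine and choline, and was treated with tormentic acid, at what the labels call a high dose. The model group (3 libraries) was fed the MCD diet alone. The normal group (3 libraries), labelled wild type, was given saline. All mice were C57BL/6, and whole liver RNA was sequenced. The sources used here do not give the amount of tormentic acid, the time on diet, the sex or the age of the animals, or whether saline was also given to the TA and model groups. Nothing in the labels ties each library to its own mouse, so p-values refer to the spread among libraries, which may be technical. Bulk liver RNA is a mix of cells, so that fewer cells of a type and less RNA per cell cannot be told apart.

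Mitochondria keep a small genome that encodes core subunits of the respiratory chain and of ATP synthase. These few messages are translated by a separate ribosome, the mitoribosome, whose ribosomal RNAs come from mitochondrial DNA but whose proteins are all encoded in the nucleus, made in the cytosol and imported. The small subunit reads the message and the large subunit joins the amino acids; some of the proteins have homologues in bacterial ribosomes and others are found only in mitochondria.

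Upstream sequence is shown for the 4 members with the largest falls in model against normal, because promoters of genes for mitochondrial proteins are known for sites of ETS-family factors (NRF2/GABP), NRF1 and YY1. The lines give RefSeq promoter windows on GRCm38.p6, from 250 bases before to 50 bases after the RefSeq gene start, 5′ to 3′ along the strand of the gene; capitals mark the letters CCGGAAG (ETS) or AAGATGG (YY1) or their reverse complements. The windows are chr11:5707652-5707951 (minus strand) for Mrps24, chr7:28741772-28742071 (minus strand) for Mrps12, chr9:98601630-98601929 (minus strand) for Mrps22 and chr13:99344536-99344835 (plus strand) for Mrps27.
Mrps24: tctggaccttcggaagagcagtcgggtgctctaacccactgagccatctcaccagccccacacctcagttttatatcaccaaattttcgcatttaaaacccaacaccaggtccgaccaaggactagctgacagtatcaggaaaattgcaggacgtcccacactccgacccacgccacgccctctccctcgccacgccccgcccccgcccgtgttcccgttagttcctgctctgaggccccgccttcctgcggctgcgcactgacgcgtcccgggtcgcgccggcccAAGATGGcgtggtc
Mrps12: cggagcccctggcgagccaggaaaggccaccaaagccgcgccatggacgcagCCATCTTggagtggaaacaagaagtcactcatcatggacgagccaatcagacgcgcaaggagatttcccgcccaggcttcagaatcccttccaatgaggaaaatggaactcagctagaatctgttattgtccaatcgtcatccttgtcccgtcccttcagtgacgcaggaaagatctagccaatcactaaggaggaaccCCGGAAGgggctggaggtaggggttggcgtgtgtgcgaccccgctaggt
Mrps22: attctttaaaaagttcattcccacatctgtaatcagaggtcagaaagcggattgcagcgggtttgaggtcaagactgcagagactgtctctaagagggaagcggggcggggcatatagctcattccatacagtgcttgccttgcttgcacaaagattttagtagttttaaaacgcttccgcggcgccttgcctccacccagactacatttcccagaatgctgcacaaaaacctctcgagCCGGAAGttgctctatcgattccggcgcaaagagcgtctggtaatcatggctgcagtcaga
Mrps27: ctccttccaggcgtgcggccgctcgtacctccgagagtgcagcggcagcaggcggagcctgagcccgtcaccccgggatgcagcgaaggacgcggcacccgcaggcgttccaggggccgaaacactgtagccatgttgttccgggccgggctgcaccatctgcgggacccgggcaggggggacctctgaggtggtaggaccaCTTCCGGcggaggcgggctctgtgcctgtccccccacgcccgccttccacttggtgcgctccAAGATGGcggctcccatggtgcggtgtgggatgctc
The window of Mrps24 lies inside the longer gene annotated by GENCODE M21. Its YY1 letters begin 36 bases after the start. Mrps12 holds the ETS letters 1 base after the start and the YY1 letters, on the other strand, 198 bases before it. Mrps22 has the ETS letters 11 bases before the start. Mrps27 has the ETS letters 48 bases before the start, on the other strand, and the YY1 letters 14 bases after it.

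RefSeq windows were found for 68 of the 77 genes. With both strands searched, CCGGAAG or CTTCCGG was in 25 of 68 (36.8%), against 18.9% of 10512 tested genes with a window and 8.86% of all 32851 windows. AAGATGG or CCATCTT was in 13 (19.1%), against 8.06% of tested genes and 6.34% of all windows. The NRF1 letters GCGCA followed directly by TGCGC, together their own reverse complement, were in 3 (4.41%; Mrpl9, Mrpl32 and Mrpl39), against 2.23% of tested genes and 0.971% of all windows. The SP letters GGGCGG or CCGCCC were in 34 (50%), against 66.5% of tested genes and 35.7% of all windows. The TATA letters TATAAA or TTTATA were in 5 (7.35%), against 9.39% of tested genes and 13.6% of all windows. The NFY letters CCAAT or ATTGG were in 26 (38.2%), against 42.7% of tested genes and 37.4% of all windows. The ETS and YY1 letters can overlap, since CCGGAAG ends in the AAG that opens AAGATGG, though not in the windows printed; a match describes the window only. The median log2 fold change of model over normal, with the TMM scaling described below, was -0.46 in the 25 genes with the ETS letters and -0.60 in the 43 without, and -0.70 in the 13 genes with the YY1 letters and -0.46 in the 55 without. For TA over model it was 0.42 with and 0.46 without the ETS letters, and 0.43 with and 0.44 without the YY1 letters.

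The 77 genes lie on 17 chromosomes, with 11 on chromosome 11 and 8 on chromosome 17. In GENCODE M21, 33 of 77 (42.9%) have the start of another protein-coding gene on the opposite strand within 1000 bases, against 15.1% of the 13210 protein-coding genes above the same count minimum. Several such partners also make mitochondrial proteins: Sars2, the mitochondrial seryl-tRNA synthetase, starts 172 bases from Mrps12, the complex I genes Ndufs6 and Ndufb5 start 29 bases from Mrpl36 and 615 bases from Mrpl47, and Twnk, the mitochondrial DNA helicase, starts 779 bases from Mrpl43. Mrpl46 and Mrps11 are such a pair within the family, 412 bases apart.

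Library totals ran between 13710002 and 16464308 counts in the TA group, 15519086 and 16086294 in the model group, and 13950065 and 16475794 in the normal group. Hepatocyte markers were abundant in all 9 libraries, in keeping with the label, at a sum of 120250 to 161670 CPM in TA, 54975 to 88485 CPM in model and 136480 to 165940 CPM in normal liver. CPM is the count scaled to a fixed library size, here and below scaled with TMM factors (trimmed mean of M values), which align libraries on the genes in the middle of the distribution, unless library totals are named. Those factors averaged 0.900 ± 0.102 in TA, 1.34 ± 0.137 in model and 0.833 ± 0.00887 in normal libraries (SD, n = 3 each), so fold changes depend on the choice of scale. Over all 13200 genes tested, the median log2 fold change of model over normal was 0.00 with TMM factors and 0.69 with library totals, and that of TA over model was -0.01 and -0.59. TA replicate 1 and model replicate 2 stood nearest to the other condition in TMM factor within their groups (1.01 and 1.19), and results that rest on them are given without them.

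Transcripts of the family were of moderate to low abundance. A member had between 10 and 1336 counts in a library, so that counting error alone is large for the rarest ones. Per kilobase of the gene length listed in the table, the mean over all libraries was highest for Mrpl12 (51.5 CPM per kb), the L7/L12-type stalk protein that receives translation factors, followed by Mrpl34 (42.9), Mrps21 (37.2), Mrpl2 (32.5) and Mrpl38 (28.1). The lowest were Mrpl33 (0.287 CPM per kb), Mrps18c (1.06), Mrps6 (1.42), Mrps25 (1.55) and Mrps30 (2.08). The median was 9.61 CPM per kb and the range 180-fold. These values describe read density over the listed gene models, whose lengths run between 607 and 8631 bases, and not protein amounts.

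The summed level of the 77 genes depended on the scale. With TMM factors it was 1899, 2099 and 2482 CPM in TA, 1541, 1799 and 1384 CPM in model, and 2322, 2312 and 2170 CPM in normal libraries. Every model library was below every TA and every normal library on this scale, and the TA and normal libraries overlapped. The means were 2160 ± 296, 1575 ± 209 and 2268 ± 85.2 CPM in TA, model and normal liver (SD, n = 3 each). As a share of all counts the order of model changed: the family took 0.191%, 0.188% and 0.199% of counts in TA, 0.217%, 0.213% and 0.199% in model, and 0.191%, 0.195% and 0.181% in normal libraries. By this measure model libraries were the highest as a group, at 2098 ± 97.5 CPM, against 1924 ± 57.9 in TA and 1890 ± 71.1 in normal liver.

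**Figure D1:**
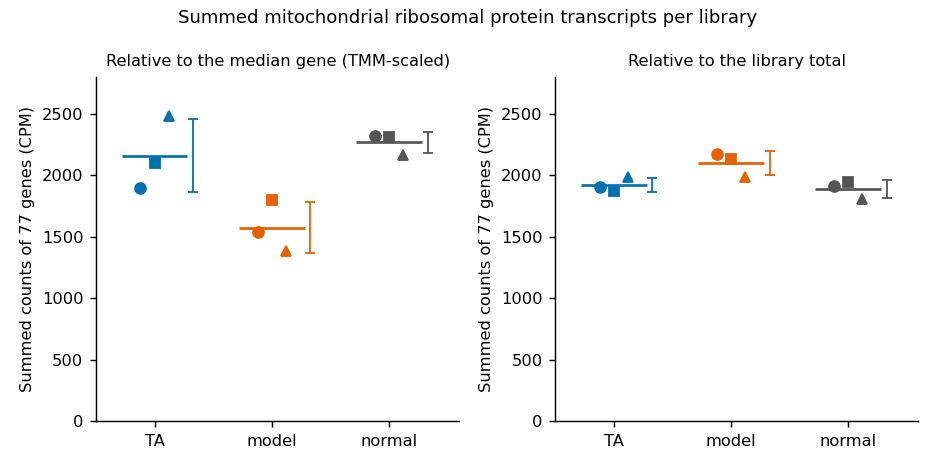
Summed CPM (vertical axis, starting at 0) of the 77 genes in each library of TA, model and normal liver, scaled with TMM factors (left) and by library totals (right). Circles, squares and triangles are replicates 1, 2 and 3, horizontal lines are group means and brackets are ± 1 SD (n = 3); model averages 1575 CPM and stands lowest on the left, and averages 2098 CPM and stands highest on the right.

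Model against normal compares the MCD diet with the saline-treated normal group. Relative to the median gene, 42 of the 77 genes fell in model liver and 0 rose (54.5% lower, against 22.6% of all genes tested called lower and 25.4% called higher). The median log2 fold change was -0.55, a level in model of 0.681 of that in normal liver, with quartiles of -0.68 and -0.28. Called changes lay between -0.98 and -0.41, with adjusted p between 0.000279 and 0.0462 (edgeR quasi-likelihood test, Benjamini-Hochberg adjustment over 13200 genes). In all, 74 of the 77 fold changes were negative; the exceptions Mrpl43, Mrps6 and Mrpl54 did not pass the test. At an unadjusted p under 0.05 there was 1 higher, and DESeq2 and limma-voom also called 0 higher, with 43 and 42 lower. In 51 genes every model library was below every normal library, against 30.0% of all genes tested, and in 1 gene, Mrpl54, every model library was above (31.3% of all genes). With library totals the sign was the other one for most of the family: 14 genes were called higher (55.0% of all genes were) and 0 lower (6.3% of all genes), the median was 0.12, and 21 of the 42 called genes turned to a positive value. No gene was called in opposite directions by the 2 scales. Without model replicate 3 the count of falls with TMM factors was 27.

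The largest falls were in small-subunit genes. Mrps24 (ENSMUSG00000020477, chromosome 11:5703983-5715680 on GRCm38), a homologue of bacterial S3 where the message enters the ribosome, had 29.8, 28 and 31.8 CPM in TA, 17.1, 21.5 and 16.7 CPM in model and 37.3, 37.8 and 33.8 CPM in normal libraries. The model libraries stood below all others and the TA libraries between the other groups. The log2 fold change of model over normal was -0.98 ± 0.14 (SE; adjusted p = 0.000279). Mrps12 (chromosome 7:28739641-28741820), the homologue of bacterial S12 in the decoding centre, had 24.9, 19.0 and 19.0 CPM in TA, 12.5, 18.6 and 15.8 CPM in model and 30.0, 27.8 and 32.6 CPM in normal libraries. It fell by 0.95 ± 0.18 in model against normal (adjusted p = 0.00140), without overlap between these groups.

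Mrps22 (chromosome 9:98588730-98601660), a mitochondria-specific subunit mutated in a human oxidative phosphorylation deficiency, had 18.0, 24.8 and 25.2 CPM in TA, 15.4, 17.8 and 17.5 CPM in model and 31.6, 31.2 and 33.7 CPM in normal libraries. Its change in model was -0.93 ± 0.16 (adjusted p = 0.000727). Mrps27 (chromosome 13:99344786-99415562), a mitochondria-specific protein of the pentatricopeptide repeat type, had 14.7, 16.7 and 17.3 CPM in TA, 10.8, 13.9 and 8.75 CPM in model and 19.7, 22.1 and 19.9 CPM in normal libraries, and its change in model was -0.89 ± 0.18 (adjusted p = 0.00240). In both genes model and normal libraries did not overlap. Next came Mrpl49 (-0.88 ± 0.17, adjusted p = 0.00153), Mrpl34 (-0.84 ± 0.19, adjusted p = 0.00387), Mrps34 (-0.82 ± 0.17, adjusted p = 0.00257) and Mrpl39 (-0.81 ± 0.17, adjusted p = 0.00253). With library totals these 8 genes were also lower in model, by log2 values of -0.31 (Mrps24, adjusted p = 0.0842) to -0.13 (Mrpl39, adjusted p = 0.441), none of them called.

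TA against model compares tormentic acid on the diet with the diet alone. Relative to the median gene, 20 of the 77 genes rose in TA liver and 0 fell (26.0% higher, against 11.8% of all genes tested called higher, 11.1% called lower and 23.0% called in either direction). The median log2 fold change was 0.44, a level 1.35 times that in model liver, and 75 of the 77 values were positive, Mrpl3 and Mrpl33 being the exceptions. At an unadjusted p under 0.05 there were also 0 lower, and DESeq2 and limma-voom called 22 and 24 higher and 0 lower. Called rises lay between 0.45 and 0.82, with adjusted p between 0.00630 and 0.0472. In 39 genes every TA library was above every model library, against 19.0% of all genes tested, and in 0 every one was below (20.1% of all genes). With library totals 0 genes were called higher (3.04% of all genes were) and 3 lower, Mrpl3, Mrpl50 and Mrps23 (43.3% of all genes), and the median was -0.14; 17 of the 20 called rises stayed positive and 3 turned. The count of rises moved with single libraries: it was 35 without TA replicate 1, 11 without TA replicate 2 and 7 without TA replicate 3, and 8, 31 and 7 without model replicates 1, 2 and 3.

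**Figure D2:**
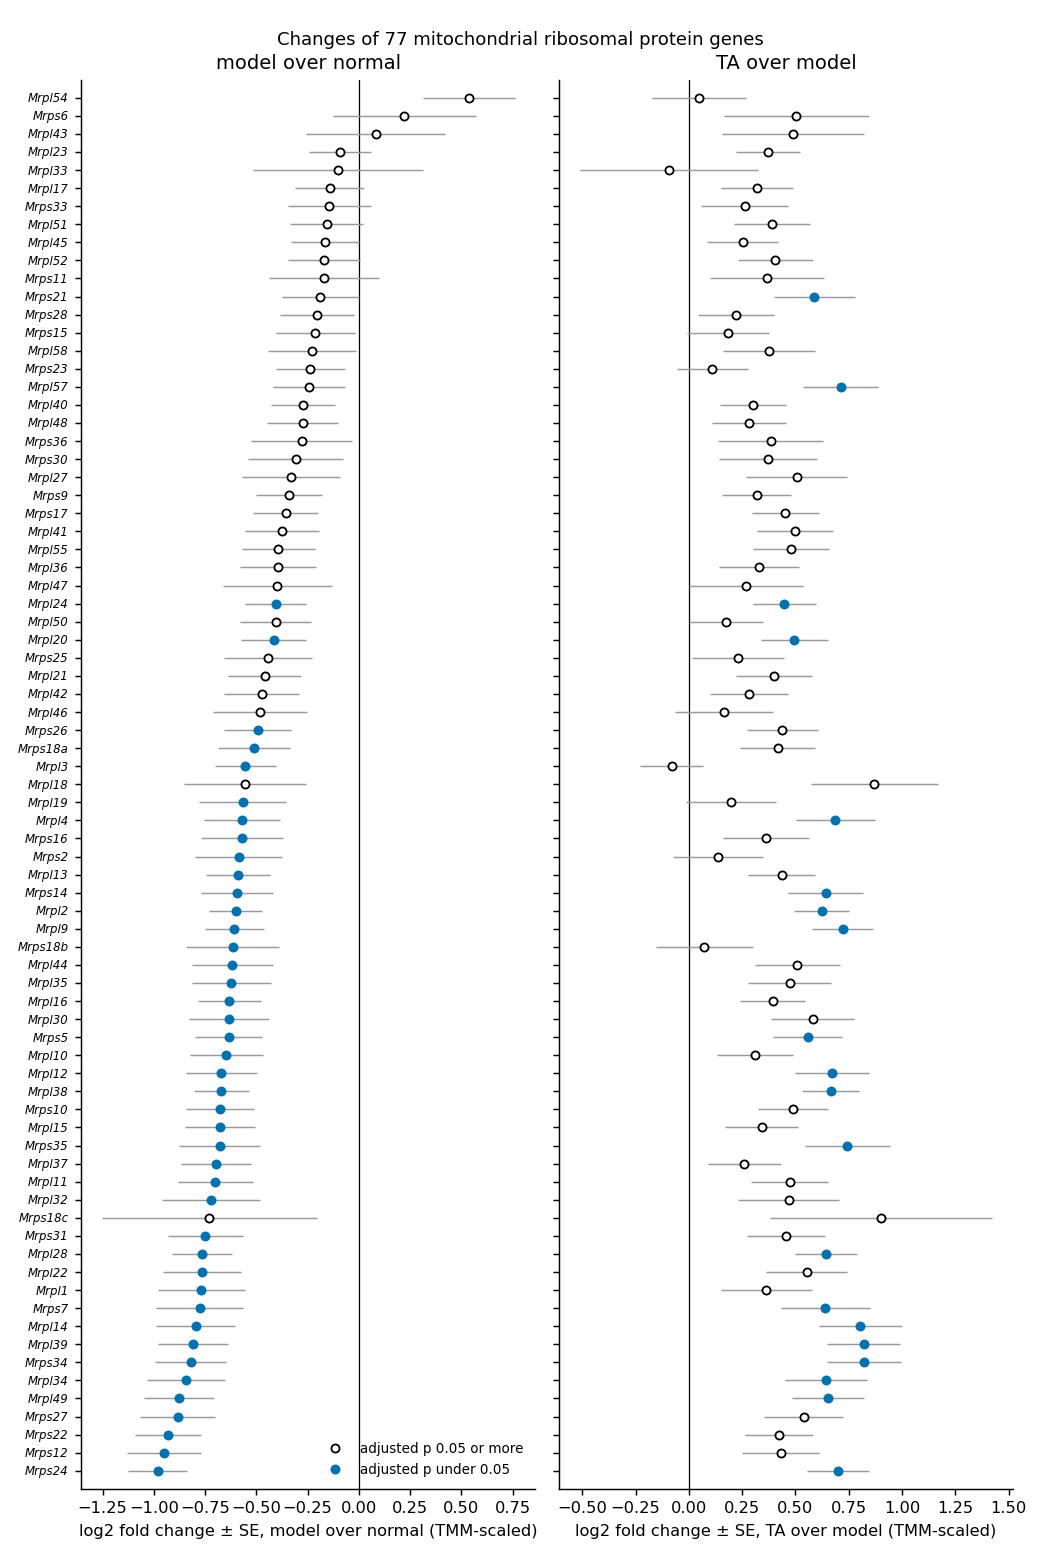
Log2 fold change (horizontal axis, TMM-scaled, ± SE) of each of the 77 genes for model over normal (left) and TA over model (right), ordered from top to bottom by the left panel. Filled points passed an adjusted p under 0.05; 42 do so on the left, all negative, and 20 on the right, all positive, while library totals shift the medians to 0.12 and -0.14.

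Mrps34 and Mrpl39 rose most. Mrps34 (chromosome 17:24895116-24897502), a mitochondria-specific small-subunit protein whose human gene is mutated in Leigh syndrome, had 19.2, 17.3 and 18.4 CPM in TA, 9.13, 12.8 and 9.18 CPM in model and 18.0, 17.0 and 19.8 CPM in normal libraries. All TA libraries were above all model libraries and within the range of normal; the log2 fold change of TA over model was 0.82 ± 0.17 (adjusted p = 0.00812). In GENCODE M21, 63.4% of the Mrps34 exon length overlaps Mapk8ip3 on the opposite strand and 37.0% overlaps Nme3 on the same strand, and whether counting used strand was not stated, so its level is uncertain. Mrpl39 (chromosome 16:84717576-84735742), a mitochondria-specific large-subunit protein, had 37.2, 42.6 and 53.6 CPM in TA, 22.3, 29.1 and 24.1 CPM in model and 48.2, 39.3 and 44.5 CPM in normal libraries. It rose by 0.82 ± 0.17 (adjusted p = 0.00771), and here too TA and model did not overlap.

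Mrpl14 (chromosome 17:45686322-45698495), the homologue of bacterial L14 at the subunit interface, had 14.0, 18.1 and 18.9 CPM in TA, 9.89, 10.4 and 8.83 CPM in model and 18.6, 18.9 and 13.1 CPM in normal libraries. Its rise in TA was 0.80 ± 0.19 (adjusted p = 0.0138), which became 0.0601 without model replicate 3 and 0.0506 without TA replicate 3. Mrps35 (chromosome 6:147042764-147073991), a mitochondria-specific small-subunit protein, had 24.6, 28.1 and 39.0 CPM in TA, 19.3, 20.7 and 14.7 CPM in model and 31.5, 25.5 and 30.6 CPM in normal libraries. It rose by 0.74 ± 0.20 (adjusted p = 0.0214). That call was lost without model replicate 1 (adjusted p = 0.0561), model replicate 3 (0.0897) or TA replicate 3 (0.0824). Mrpl9, the homologue of bacterial L9, had the smallest p of the family in this comparison (0.72 ± 0.14, adjusted p = 0.00630), with means of 32.4 ± 3.30 CPM in TA, 19.6 ± 2.23 CPM in model and 29.8 ± 1.34 CPM in normal liver. With library totals the log2 values of Mrps34, Mrpl39, Mrpl14, Mrps35 and Mrpl9 were 0.26, 0.24, 0.22, 0.15 and 0.14, none of them called.

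**Figure D3:**
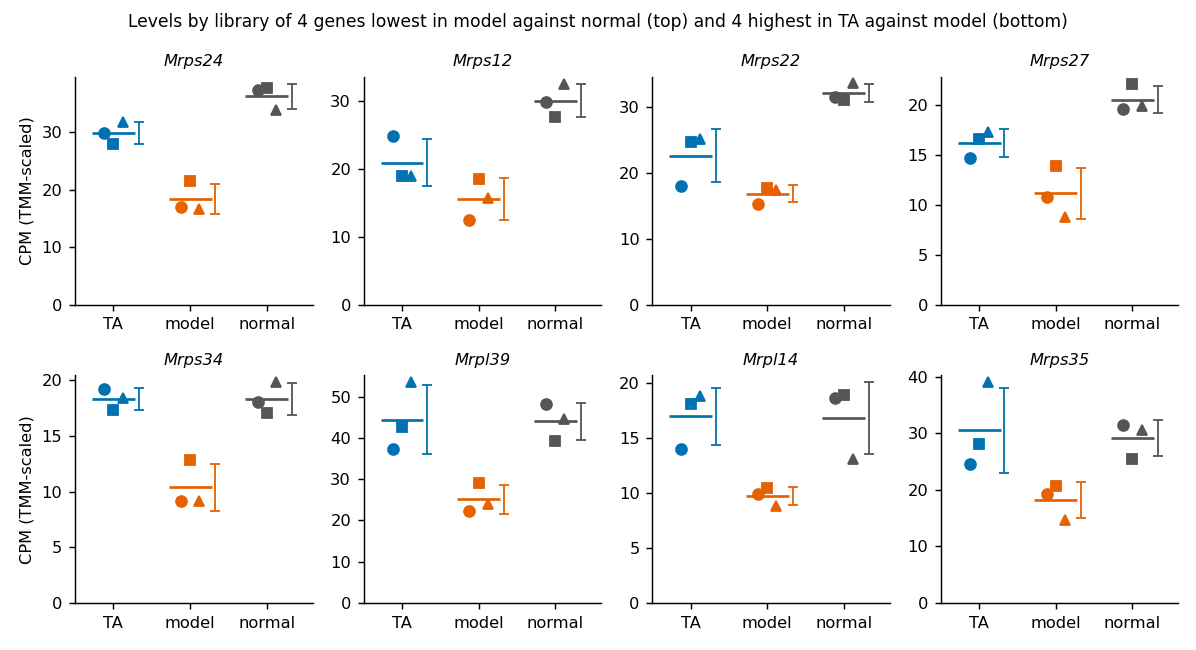
TMM-scaled CPM (vertical axes, starting at 0) in each library of the 4 genes with the largest falls in model against normal (top row) and the 4 with the largest called rises in TA against model (bottom row). Circles, squares and triangles are replicates 1, 2 and 3, lines are means and brackets ± 1 SD (n = 3); the model mean is lowest in every panel on this scale, and in the bottom row TA and model libraries do not overlap.

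Both comparisons use the same model libraries, so their values are not independent and are only set side by side here. The genes called in both, each lower in model and higher in TA, were Mrpl2, Mrpl4, Mrpl9, Mrpl12, Mrpl14, Mrpl20, Mrpl24, Mrpl28, Mrpl34, Mrpl38, Mrpl39, Mrpl49, Mrps5, Mrps7, Mrps14, Mrps24, Mrps34 and Mrps35. The log2 values of model over normal and of TA over model were -0.76 ± 0.15 and 0.64 ± 0.15 for Mrpl28, -0.78 ± 0.21 and 0.64 ± 0.21 for Mrps7, -0.60 ± 0.13 and 0.62 ± 0.13 for Mrpl2, and -0.64 ± 0.16 and 0.56 ± 0.16 for Mrps5. In addition 2 genes rose in TA without having been called in model, Mrpl57 (0.71 ± 0.18, adjusted p = 0.0153) and Mrps21 (0.59 ± 0.19, adjusted p = 0.0431), and 33 were called in neither. The share of all genes tested with calls in both comparisons was not counted, so this overlap does not set the family apart. The rise of Mrpl57 was lost without model replicate 3 (adjusted p = 0.0678) or TA replicate 3 (0.0575), and that of Mrps21 was lost without any 1 of 7 libraries, with adjusted p of up to 0.165 without model replicate 3.

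Many of these calls were lost when 1 library was left out. Of the 20 rises in TA, 6 passed the test without any 1 of the 9 libraries, those of Mrpl2, Mrpl9, Mrpl38, Mrpl39, Mrps24 and Mrps34. The other 14 were lost without at least 1 library. All but Mrpl28 were lost without model replicate 3 and also without TA replicate 3. Mrpl28 was lost without model replicate 1 (adjusted p = 0.0530). Mrps7 and Mrpl24 were lost without any 1 of 7 libraries (adjusted p of up to 0.178 and 0.170) and Mrpl20 without any 1 of 5 (up to 0.143). Mrpl4, Mrpl34, Mrps5 and Mrps14 were lost without model replicate 1 or 3 or TA replicate 2 or 3 (up to 0.0874, 0.123, 0.126 and 0.0956), and Mrpl49 without model replicate 1 or 3 or TA replicate 3 (up to 0.0815). Of the 42 falls in model, 27 passed without any 1 library and 15 did not, those lost including Mrpl4, Mrpl20, Mrpl24, Mrps14 and Mrps35 of the genes called in both.

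TA against normal, the comparison of treated mice on the diet with mice off it, gave 1 called gene. Of 77 genes, 0 rose and 1 fell (5.03% of all genes were called lower and 10.7% higher), and at an unadjusted p under 0.05 there were 2 higher and 5 lower. TA and normal libraries did not overlap in 4 genes higher in TA (20.1% of all genes tested) and 11 lower (16.1%). With library totals 0 were called higher (11.4% of all genes) and 0 lower (3.15%). The median log2 fold change was -0.05 with TMM factors and 0.04 with library totals. The gene that fell was Mrpl3 (chromosome 9:105053239-105079888), whose bacterial homologue L3 reaches towards the peptidyl transferase centre. It had 18.3, 18.9 and 18.6 CPM in TA, 17.9, 20.3 and 20.8 CPM in model and 32.5, 24.6 and 29.5 CPM in normal libraries. Every TA and every model library stood below every normal library, and TA and model overlapped. Its log2 fold change was -0.63 ± 0.15 for TA over normal (adjusted p = 0.0147), -0.55 ± 0.15 for model over normal (adjusted p = 0.00922) and -0.08 ± 0.15 for TA over model (adjusted p = 0.731). The call against normal was lost without normal replicate 1 (adjusted p = 0.0671) or normal replicate 3 (0.0558), and with library totals (-0.52, adjusted p = 0.0627). DESeq2 called 3 genes lower in this comparison.

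Because the scale decides the direction of the family, each gene was also taken as a share of the summed counts of the 77 genes, which no library scaling can move. This view was added after the data had been seen. In model against normal 3 genes were called higher relative to the family and 1 lower, where 51.8% of all genes were called in either direction on that scale. In TA against model 0 were called (31.3% of all genes), and in TA against normal 0 (12.7% of all genes). This scale holds the family sum fixed, so members have fewer calls in part by construction, and the all-gene percentages are not a like measure. Mrpl54, a mitochondria-specific large-subunit protein, made up 0.919%, 0.984% and 1.03% of the family in TA, 1.66%, 1.03% and 1.27% in model and 0.666%, 0.715% and 0.485% in normal libraries. All libraries on the diet were above all normal ones. Its rise relative to the family in model against normal was 1.08 ± 0.22 on the log2 scale (adjusted p = 0.00189), and it passed the test without any 1 of the 9 libraries.

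Mrps24 moved the other way, with 1.57%, 1.33% and 1.28% of the family in TA, 1.11%, 1.19% and 1.20% in model and 1.61%, 1.64% and 1.56% in normal libraries (-0.45 ± 0.15 for model over normal, adjusted p = 0.0260). Mrpl23, the homologue of bacterial L23 at the exit of the peptide tunnel, made up 1.32% ± 0.115 in TA, 1.39% ± 0.0607 in model and 1.03% ± 0.0852 in normal liver (0.44 ± 0.15, adjusted p = 0.0322). Mrpl17, the homologue of bacterial L17, made up 2.85% ± 0.104, 3.11% ± 0.211 and 2.39% ± 0.0932 in TA, model and normal liver (0.38 ± 0.14, adjusted p = 0.0416). In these 3 genes, too, model and normal libraries did not overlap, but the calls did not hold with each library left out. The call of Mrps24 was lost without any 1 of normal replicates 1 to 3 and model replicates 1 and 3 (adjusted p of up to 0.0884), that of Mrpl23 without any 1 of the same libraries (up to 0.119), and that of Mrpl17 without any 1 of the normal or model libraries or TA replicate 2 (up to 0.118).

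**Figure D4:**
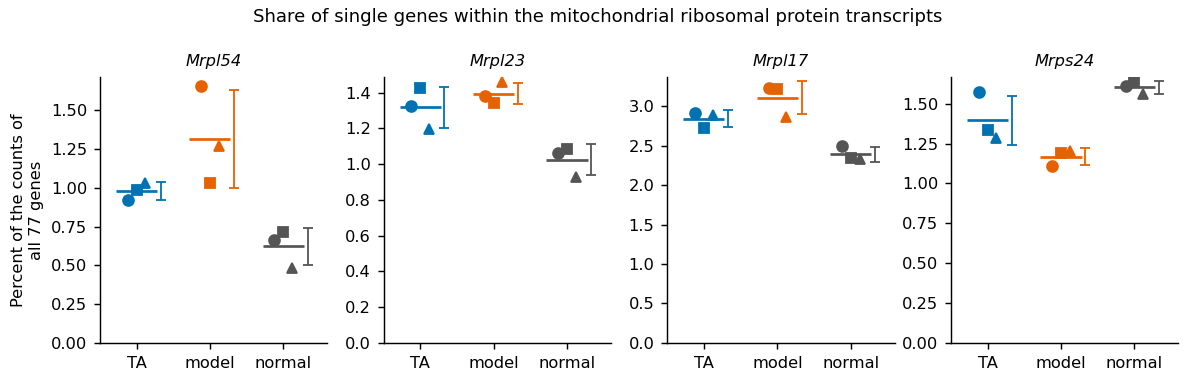
Percent of the summed counts of the 77 genes (vertical axes, starting at 0) taken by Mrpl54, Mrpl23, Mrpl17 and Mrps24 in each library of TA, model and normal liver. Circles, squares and triangles are replicates 1, 2 and 3, lines are means and brackets ± 1 SD (n = 3); the first 3 genes hold a larger share in every model library than in any normal library, and Mrps24 a smaller one.

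Falls in model were found in both subunits. In the large subunit (50 genes, with Mrps18a and Mrps30, which structures place there) 27 fell and 0 rose in model against normal, with a median of -0.53, and in the small subunit (26 genes) 15 fell and 0 rose, with a median of -0.59. In TA against model 13 large-subunit and 7 small-subunit genes rose and 0 fell, with medians of 0.43 and 0.45. With library totals 0 genes of either subunit fell in model and 0 rose in TA. Among genes with a bacterial homologue 29 of 46 fell in model (median -0.59) and 14 rose in TA (median 0.47); among mitochondria-specific ones these were 13 of 30 (median -0.46) and 6 (median 0.40), where 22.6% of all genes tested were called lower in model and 11.8% higher in TA. Of the mitochondria-specific proteins of the large subunit 6 of 20 fell in model (30%, median -0.34) and of those of the small subunit 7 of 10 (70%, median -0.65). Mrps18a and Mrps18b, paralogues of bacterial S18, were counted as mitochondria-specific, and Mrps18c with the bacterial homologues. The difference between classes was not tested.

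By role, 3 members of the stalk that recruits translation factors, Mrpl12, Mrpl10 and Mrpl11, fell in model. They were picked after values were seen and need not be all the members there. With library totals the log2 values of Mrpl12, Mrpl10 and Mrpl11 for model over normal were -0.004, 0.024 and -0.023, none of them called. Mrpl12 (chromosome 11:120484613-120489065), the most abundant of the family, had 80.7, 94.4 and 95.5 CPM in TA, 52.7, 71.4 and 45.6 CPM in model and 89.9, 91.8 and 88.5 CPM in normal libraries. Its change was -0.67 ± 0.17 in model against normal (adjusted p = 0.00808) and 0.67 ± 0.17 in TA against model (adjusted p = 0.0187). The rise in TA was lost without TA replicate 2 or 3 or model replicate 1 or 3 (adjusted p of up to 0.0841). Mrpl10, which anchors the stalk, averaged 34.7 ± 3.05 CPM in TA, 28 ± 6.44 in model and 43.8 ± 4.84 in normal liver (-0.65 ± 0.18 for model over normal, adjusted p = 0.0106), and Mrpl11 at the stalk base averaged 23.7 ± 4.79 CPM in TA, 17.0 ± 2.72 in model and 27.7 ± 2.40 in normal liver (-0.70 ± 0.18, adjusted p = 0.00830). For these 2 genes the values of TA over model, 0.31 (adjusted p = 0.226) and 0.47 (adjusted p = 0.0833), did not pass the test; that of Mrpl11 did without TA replicate 1 (adjusted p = 0.0325) or model replicate 2 (0.0465).

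At the peptide exit tunnel, Mrpl22 fell in model (-0.77 ± 0.19, adjusted p = 0.00631), as did Mrpl24 (-0.41 ± 0.15, adjusted p = 0.0391), whereas Mrpl23 (-0.09 ± 0.15, adjusted p = 0.638) and the membrane-facing Mrpl45 (-0.16 ± 0.17, adjusted p = 0.436) did not pass the test. Mrpl58, a peptidyl-tRNA hydrolase built into the large subunit that also acts in ribosome rescue, had a value of -0.23 ± 0.22 (adjusted p = 0.404). The fall of Mrpl24 was lost without any 1 of the normal libraries or of model replicates 1 and 3 (adjusted p of up to 0.135). Mrpl28 (-0.76 ± 0.15, adjusted p = 0.00143) and Mrpl38 fell in model; Mrpl38 averaged 81.6 ± 4.26 CPM in TA, 51.4 ± 2.32 in model and 81.9 ± 7.78 in normal liver and rose in TA by 0.67 ± 0.13 (adjusted p = 0.00683). The head-to-head pair Mrpl46 and Mrps11 was not called in either comparison, with values of -0.48 ± 0.23 and -0.17 ± 0.27 for model over normal. With library totals the values of Mrpl10, Mrpl24, Mrpl23, Mrpl45, Mrpl46, Mrps11 and Mrpl58 for model over normal were positive.

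The 3 paralogues of bacterial S18 occupy different places: Mrps18a sits in the large subunit, and Mrps18b and Mrps18c in the small one. Mrps18a (-0.51 ± 0.18, adjusted p = 0.0302) and Mrps18b (-0.62 ± 0.23, adjusted p = 0.0424) fell in model; in TA against model their values were 0.42 (adjusted p = 0.107) and 0.07 (adjusted p = 0.845). Both falls were lost, for example, without model replicate 1 (adjusted p = 0.112 and 0.162), model replicate 3 (0.0733 and 0.121) or normal replicate 3 (0.0958 and 0.132). Both values for model over normal were positive with library totals. Mrps18c had only 10 to 24 counts in a library, and its values of -0.73 ± 0.52 and 0.90 ± 0.52 could not be told from 0 at this depth (adjusted p = 0.270 and 0.233). Mrps36, which bears a ribosomal name but is known as a subunit of the 2-oxoglutarate dehydrogenase complex, had values of -0.28 ± 0.25 and 0.38 ± 0.25 and was not called.

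Mrpl54 was the member with the highest value in model against normal. Mrpl54 (chromosome 10:81264713-81266934) had 17.5, 20.7 and 25.6 CPM in TA, 25.5, 18.5 and 17.5 CPM in model and 15.5, 16.5 and 10.5 CPM in normal libraries. All TA and model libraries lay above all normal ones, and TA and model overlapped. Its log2 fold change in model against normal was 0.54 ± 0.22 with TMM factors (adjusted p = 0.0670), 0.68 with upper-quartile factors (adjusted p = 0.0351) and 1.23 with library totals (adjusted p = 0.000978). The TA over model value was 0.05 ± 0.22 (adjusted p = 0.897).

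Other lists of mitochondrial translation genes also held falls in model on the TMM scale, and all but the assembly list held some rises in TA. For comparison, 22.6% of all genes tested were called lower in model, and 11.8% were called higher and 11.1% lower in TA. Of 4 tested mitoribosomal proteins with other kinds of names, 3 fell in model and 2 rose in TA; Chchd1 changed by -0.87 ± 0.17 in model (adjusted p = 0.00178) and 0.68 ± 0.17 in TA (adjusted p = 0.0179). Of 26 genes of mitoribosome assembly and rRNA modification, 11 fell in model (median -0.46), among them Nsun4, an rRNA methyltransferase (-0.92 ± 0.17, adjusted p = 0.00108). In TA 0 of these rose and 1 fell, Trub2, a pseudouridine synthase (-0.70 ± 0.21, adjusted p = 0.0328). Of 16 translation factors 9 fell in model and 2 rose in TA, including Lrpprc, which stabilises mitochondrial messages (-0.95 ± 0.18, adjusted p = 0.00136 in model; 0.72 ± 0.18, adjusted p = 0.0164 in TA). Of 17 mitochondrial aminoacyl-tRNA synthetases 9 fell in model and 3 rose in TA. Nars2 (-1.45 ± 0.18 in model, adjusted p = 7.8e-05) also fell with library totals (-0.78, adjusted p = 0.00213), and Lars2 (1.18 ± 0.23 in TA, adjusted p = 0.00582) also rose with library totals (0.61, adjusted p = 0.0254). With library totals no other gene of these 4 lists fell in model or rose in TA (6.3% and 3.04% of all genes did). On that scale 6 assembly genes, 2 translation factors and 3 synthetases rose in model, where 55.0% of all genes were called higher. In TA 4 assembly genes, 2 translation factors and 4 synthetases fell, as did 1 of the mitoribosomal proteins with other names. There 43.3% of all genes were called lower.

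Among regulators of mitochondrial biogenesis (19 genes) 2 rose and 6 fell in model. Over all genes tested, 25.4% were called higher and 22.6% lower in model, and 11.8% higher and 11.1% lower in TA. Myc, which activates ribosome and mitochondrial genes, rose by 2.48 ± 0.42 (adjusted p = 0.000694) and Pprc1, a coactivator of the PGC-1 family, by 1.12 ± 0.21 (adjusted p = 0.00141), while Tfam, the mitochondrial DNA packaging factor, fell by 0.66 ± 0.15 (adjusted p = 0.00360). In TA against model 4 rose, among them Ppargc1b (1.15 ± 0.31, adjusted p = 0.0228), and 1 fell, Myc (-1.64 ± 0.40, adjusted p = 0.0147). The rise and fall of Myc held with library totals (3.20, adjusted p = 0.000228, and -2.24, adjusted p = 0.00349), whereas Tfam had 0.01 (adjusted p = 0.932) there. Of 20 markers of mitochondrial content, 1 rose and 10 fell in model (median -0.44) and 5 rose in TA (median 0.33). With library totals 9 rose in model (55.0% of all genes did) and 5 fell in TA (43.3% of all genes did). Slc25a4, the ADP/ATP carrier form of heart and muscle, was the marker that rose in model (1.74 ± 0.25, adjusted p = 0.000247).

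The nuclear genes of the respiratory complexes, whose products are assembled with the proteins that mitoribosomes make, had medians farther from 0 than the ribosomal proteins with TMM factors. Of 79 genes 1 rose and 57 fell in model (median -0.70), and 62 rose and 0 fell in TA (median 0.74), against medians of -0.55 and 0.44 in the mitoribosomal family. With library totals their medians were -0.02 and 0.16, against 0.12 and -0.14 in the family. The 12 tested messages of the mitochondrial genome, the templates of the mitoribosome, had medians of -0.40 in model, with 0 called, and 0.98 in TA, with 1 called higher, mt-Co3 (2.25 ± 0.57, adjusted p = 0.0166); with library totals these medians were 0.29 and 0.34. Their summed level spread widely within TA, at 48975, 139610 and 191810 CPM, against 82171, 63678 and 51278 CPM in model and 80028, 92620 and 77374 CPM in normal libraries. Of 79 cytosolic ribosomal protein genes 1 rose and 5 fell in model (median -0.18), and 3 rose in TA (median 0.26). With library totals 46 rose and 0 fell in model (median 0.51), where 55.0% of all genes were called higher and 6.3% lower. On that scale 0 rose and 7 fell in TA (median -0.33), where 3.04% of all genes were called higher and 43.3% lower. With TMM factors, 25.4% of all genes were called higher and 22.6% lower in model, and 11.8% higher and 11.1% lower in TA. No difference between these lists and the mitoribosomal family was tested.

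**Figure D5:**
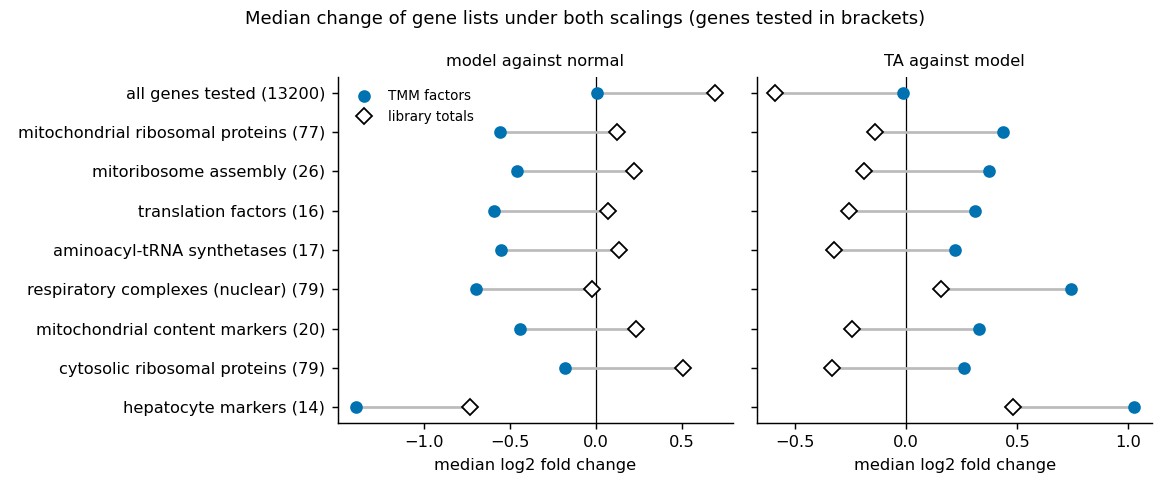
Median log2 fold change (horizontal axis) of gene lists for model over normal (left) and TA over model (right), with TMM factors (filled circles) and library totals (open diamonds), and the number of genes tested in brackets. The median of all genes shifts by about as much as that of the family between the 2 scales, so the mitochondrial ribosomal proteins stand to the left of the all-gene median on the left and to its right on the right under both.

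Markers of cell types differed between groups, though not every list did so in both comparisons. Across all genes tested, 25.4% were called higher and 22.6% lower in model, and 11.8% higher and 11.1% lower in TA. Of 14 hepatocyte markers 0 rose and 12 fell in model (median -1.40), and 10 rose and 0 fell in TA (median 1.03); with library totals 9 fell in model and 6 rose in TA. Of 15 macrophage and monocyte markers 13 rose in model and 11 fell in TA, with a summed level of 1329 to 1866 CPM in TA, 3043 to 3799 CPM in model and 524 to 627 CPM in normal libraries. Of 10 stellate cell and matrix markers 8 rose in model, and the sum was 449 to 1088 CPM in TA, 767 to 1987 CPM in model and 203 to 308 CPM in normal libraries. Of 7 cholangiocyte markers 5 rose in model (161 to 452 CPM in TA, 164 to 640 CPM in model and 81.2 to 151 CPM in normal libraries), as did 5 of 7 liver endothelial markers (146 to 348 CPM in TA, 345 to 490 CPM in model and 223 to 231 CPM in normal libraries) and 5 of 10 T, NK and B cell markers (22.0 to 26.4 CPM in TA, 25.4 to 33 CPM in model and 9.63 to 21.5 CPM in normal libraries). No stellate, cholangiocyte or T, NK and B cell marker was called in TA against model with TMM factors (lowest adjusted p = 0.0594, 0.165 and 0.245). Of 10 cell cycle markers 10 rose in model and 8 fell in TA. Of 5 red cell genes, 5 rose in TA against model (3 with library totals, median 1.35 with TMM factors) and 1 fell in model. In TA against normal 3 rose and 1 fell. These genes include 4 globin genes, an alpha and a beta pair of near-identical sequence within each pair. Their sum was 346 to 674 CPM in TA, 206 to 221 CPM in model and 293 to 379 CPM in normal libraries. No marker was at 0 in all libraries of a group. The part of these shifts in the changes of the mitochondrial ribosomal proteins was not tested.

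The authors' deposited tables, made with their own scaling, listed 0 of the 77 genes higher and 35 lower in model against normal at an adjusted p under 0.05, and all 35 were also called lower here; over all genes that comparison had 17.3% called higher and 14.9% lower. For TA against model the authors' deposited table called 2 higher and 0 lower, both also called higher here, against 5.34% of all genes higher and 5.52% lower. The median fold in the authors' deposited tables was 0.683 for model over normal and 1.36 for TA over model.

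The spread of the changes over the genes can be set beside their errors. Over the 77 genes the SD of the log2 fold change of model over normal was 0.28, with a median SE of 0.18 for a single gene, and for TA over model it was 0.21 with the same median SE. Across genes, which share libraries and are not independent, Spearman's rho between the log2 fold change and listed gene length was -0.01 for model over normal and -0.26 for TA over model, and that with mean CPM was -0.25 and 0.16. The median coefficient of variation within a group was 17.9% in TA, 15.9% in model and 10.7% in normal libraries. In GENCODE M21, 32 of the 77 genes share exon sequence with another gene, so that their counts are uncertain where reads could be split: beside Mrps34, the shared part of exon length was 69.8% in Mrps25 (with Nr2c2), 36.0% in Mrpl19 (with Gcfc2), 33.4% in Mrpl43 (with Twnk), 30.5% in Mrps18b, 26.3% in Mrpl24 (with Rrnad1), 24.2% in Mrps27, 23.2% in Mrps18c, 19.9% in Mrps6 and 15.4% in Mrps24 (with Urgcp, on the same strand).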

How the data were processed

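RNA-seq of 9 mouse liver libraries was analysed, 3 each from TA, model and normal mice; per the labels, Trizol was used for RNA and an NEBNext Ultra kit for the libraries. The mm9 build is named in the submitters' processing notes. The aligner, the counting method and whether it used strand are not stated in the sources used here. Raw read counts per gene were deposited and were used for every test. The authors also deposited FPKM values, which equalled counts over listed length and library total within 3.54 ppm; they served no test. Comparison tables deposited by the authors held, per the file headers, a fold as a ratio of group means, p-values and adjusted p-values, used only for counts of calls and median folds. The listed coordinates matched GRCm38 starts for 1 member, so the coordinates printed are those of GENCODE M21 on GRCm38. The table held 1 blank line, which was not used.

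In R 4.3.3, edgeR 4.0.16 kept 13200 genes (filterByExpr over 3 groups, minimum count 10, minimum total 15), with TMM factors and 1 quasi-likelihood fit of all 9 libraries with group as the only factor. Adjusted p-values are Benjamini-Hochberg values over all genes tested from this fit unless another tool is named; a gene was called under 0.05. Rose and fell are used of called genes, relative to the median gene. On simulated counts with known changes the fit was tested before use. The members, lists and tests were chosen with earlier results of these data known. Values in every library are given for the 4 largest called rises and falls of each main comparison and for Mrpl3, Mrpl12 and Mrpl54, chosen for their role or for standing apart after values were seen; other named members are the 8 largest changes, the extremes of level, the S18 paralogues, Mrps36 and the smallest p in each class and the genes called in both main comparisons, and Mrpl10, Mrpl11, Mrpl22 to Mrpl24, Mrpl45, Mrpl46, Mrps11 and Mrpl58 were added for their roles after values were seen. Alternatives were DESeq2 size factors, library totals, upper-quartile factors, counts without the mitochondrial genome, other filters, DESeq2 1.42.0, limma 3.58.1 with voom, the 6 libraries compared only, a replicate block, and leaving out each library. Replicate numbers were not used to pair the libraries in the main fit. Of 9 same-number pairs, 1 had a correlation of deviations over 0.1. Pairs of unlike number were not compared, so this cannot show whether libraries shared a source. Promoters are from RefSeq.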

Additional observations from a re-analysis of the deposited data

How the results depend on the processing

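Scaling decided the direction of the family. With library totals, 14 members were called higher and 0 lower in model against normal (median 0.12), 0 higher and 3 lower in TA against model (median -0.14) and 0 lower in TA against normal, and the summed level was 2098 CPM in model and 1890 CPM in normal liver. On that scale 55.0% of all genes were called higher in model against normal and 43.3% lower in TA against model. Under library totals the log2 fold change of model over normal was positive for 55 of the 77 members. Those that turned positive included Mrpl2 (0.079), Mrpl4 (0.099), Mrpl9 (0.076), Mrpl10 (0.024), Mrpl17 (0.53), Mrpl20 (0.26), Mrpl23 (0.59), Mrpl24 (0.27), Mrpl3 (0.14), Mrpl38 (0.017), Mrpl45 (0.52), Mrpl46 (0.18), Mrpl58 (0.45), Mrps5 (0.043), Mrps11 (0.50), Mrps14 (0.086), Mrps18a (0.17), Mrps18b (0.050) and Mrps36 (0.40). The log2 fold change of TA over model was negative for 58 members under library totals. Those that turned negative included Mrpl10 (-0.25), Mrpl11 (-0.11), Mrpl20 (-0.082), Mrpl24 (-0.14), Mrpl46 (-0.40), Mrpl54 (-0.56), Mrps5 (-0.025), Mrps11 (-0.21), Mrps12 (-0.12), Mrps18a (-0.14), Mrps18b (-0.46), Mrps22 (-0.17), Mrps27 (-0.026) and Mrps36 (-0.21). Upper-quartile factors gave 1 member higher in model against normal and 28 lower, and turned Mrpl23 in model (0.045) and Mrpl54 in TA against model (-0.035). In TA against normal, 2 members were lower with DESeq2 size factors or the stricter filter and 3 with DESeq2. The 6 libraries alone gave 12 rises in TA against model. Leaving out the mitochondrial genome put the summed level in normal liver at 2491 CPM. The cause of these shifts was not tested beyond the scale itself.

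Leaving out 1 library gave 27 to 46 falls in model, 7 to 35 rises in TA against model and 0 to 2 falls in TA against normal. Relative to the summed members, a scaling chosen after seeing the data, it gave 1 to 3 higher and 0 to 2 lower in model against normal, 0 to 1 either way in TA against model and 0 to 1 higher in TA against normal; no filter gave 1 higher in model. Uncalled values also changed sign: in model against normal Mrpl43 lay between -0.11 and 0.27 and Mrps11 between -0.34 and 0.055, and in TA against model Mrps18b lay between -0.094 and 0.33, Mrpl33 between -0.30 and 0.13, Mrpl46 between -0.00044 and 0.48, and Mrpl54 between -0.10 and 0.23.

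The replicate block, with numbers that share no known source, gave 35 falls in model, 13 rises in TA against model and 1 fall in TA against normal; relative to the summed members it gave 1 higher and 0 lower in model. It ended the rise in TA of Mrpl20 (adjusted p = 0.0575), Mrpl24 (0.0914) and Mrps35 (0.0508), and of Mrps5, Mrps7, Mrps14 and Mrps21. DESeq2 size factors ended those of Mrpl24 (0.0601), Mrps7 and Mrps21. Mrps18c, with 10 to 24 counts in a library, had an SE of 0.52 on the log2 scale, against a median of 0.18 over the 77 genes.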
